A study of Homo sapiens with 12 samples.

Results

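Repair of damaged, mispaired or broken DNA in gemcitabine (GEM)-resistant pancreatic cancer cells was read from 37 genes of nucleotide excision, base excision and single-strand break, mismatch, direct reversal and end-joining repair. The genes were taken by their gene names from the deposited expression table, which held 58302 genes. All 37 were found, each on 1 row. They comprised 10 nucleotide excision genes, 15 base excision genes, 5 mismatch repair genes, 1 direct reversal gene and 6 end-joining genes.

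In nucleotide excision repair, a lesion that distorts the helix is recognised, the strands are opened and a short piece carrying the lesion is cut out. In base excision repair, a glycosylase removes a damaged base and the gap is then filled and sealed, while mismatch repair corrects replication errors and MGMT takes an alkyl group directly off guanine. End joining ligates broken DNA ends held by the Ku heterodimer. GEM is a deoxycytidine analogue that is built into DNA and stalls its synthesis.

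BxPC-3 and CFPAC-1 are established human pancreatic ductal adenocarcinoma lines. Their derivatives, BxPC-3-GR and CFPAC-1-GR, grew out of repeated GEM treatments at rising concentrations, with recovery in drug-free medium between them. Each resistant line is thus 1 derivative of its parental line. BxPC-3 and CFPAC-1 were kept in different media and selected up to different final GEM concentrations, so line, dose and medium cannot be told apart. Total RNA of cells near confluence was sequenced in 3 replicates for each of the 4 lines, giving 12 libraries, and the authors deposited FPKM, a level per gene length and per depth of the library. The comparisons asked how the repair genes differed between resistant and parental cells within each line, and whether the lines responded alike.

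The depth implied by the steps between low values lay between 12600000 and 25200000 mapped fragments per library, and 63.9% to 73.1% of low values lay within 0.1 of a whole number of fragments. The 5 ductal epithelial markers (KRT7, KRT8, KRT18, KRT19 and EPCAM) summed to 786 to 957 FPKM in the libraries of the BxPC-3 lines, to 2618 to 2892 FPKM in CFPAC-1 and to 1122 to 1308 FPKM in CFPAC-1-GR. The 10 markers of leukocytes, endothelium, fibroblasts and acinar cells summed to 2.26 to 8.89 FPKM, with CD14 the highest at up to 4.58 FPKM and the leukocyte marker PTPRC listed at 0 in every library. The part of these markers in the results was not tested. In RNA of whole cultures, fewer cells of a kind and less RNA per cell cannot be told apart. The labels do not say whether the replicates were separate cultures, so p values measure only the spread between these libraries, which may be technical.

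The repair genes covered a wide range of levels. XRCC6, which encodes the Ku70 subunit, was highest in BxPC-3, BxPC-3-GR and CFPAC-1, with means of 113 ± 4.42, 104 ± 2.13 and 99.9 ± 2.44 FPKM (SD, n = 3). XRCC5, which encodes the Ku80 subunit, was highest in CFPAC-1-GR at 87.7 ± 1.48 FPKM. The median over the 37 genes of the mean FPKM was 3.95 in BxPC-3, 3.81 in BxPC-3-GR, 2.72 in CFPAC-1 and 3.38 in CFPAC-1-GR. Fewer than 1 FPKM was measured for 4 genes in BxPC-3, 4 in BxPC-3-GR, 9 in CFPAC-1 and 3 in CFPAC-1-GR. At the low end stood NEIL1, a glycosylase for oxidised bases, with means between 0.0535 and 0.218 FPKM in the 4 lines.

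**Figure D1:**
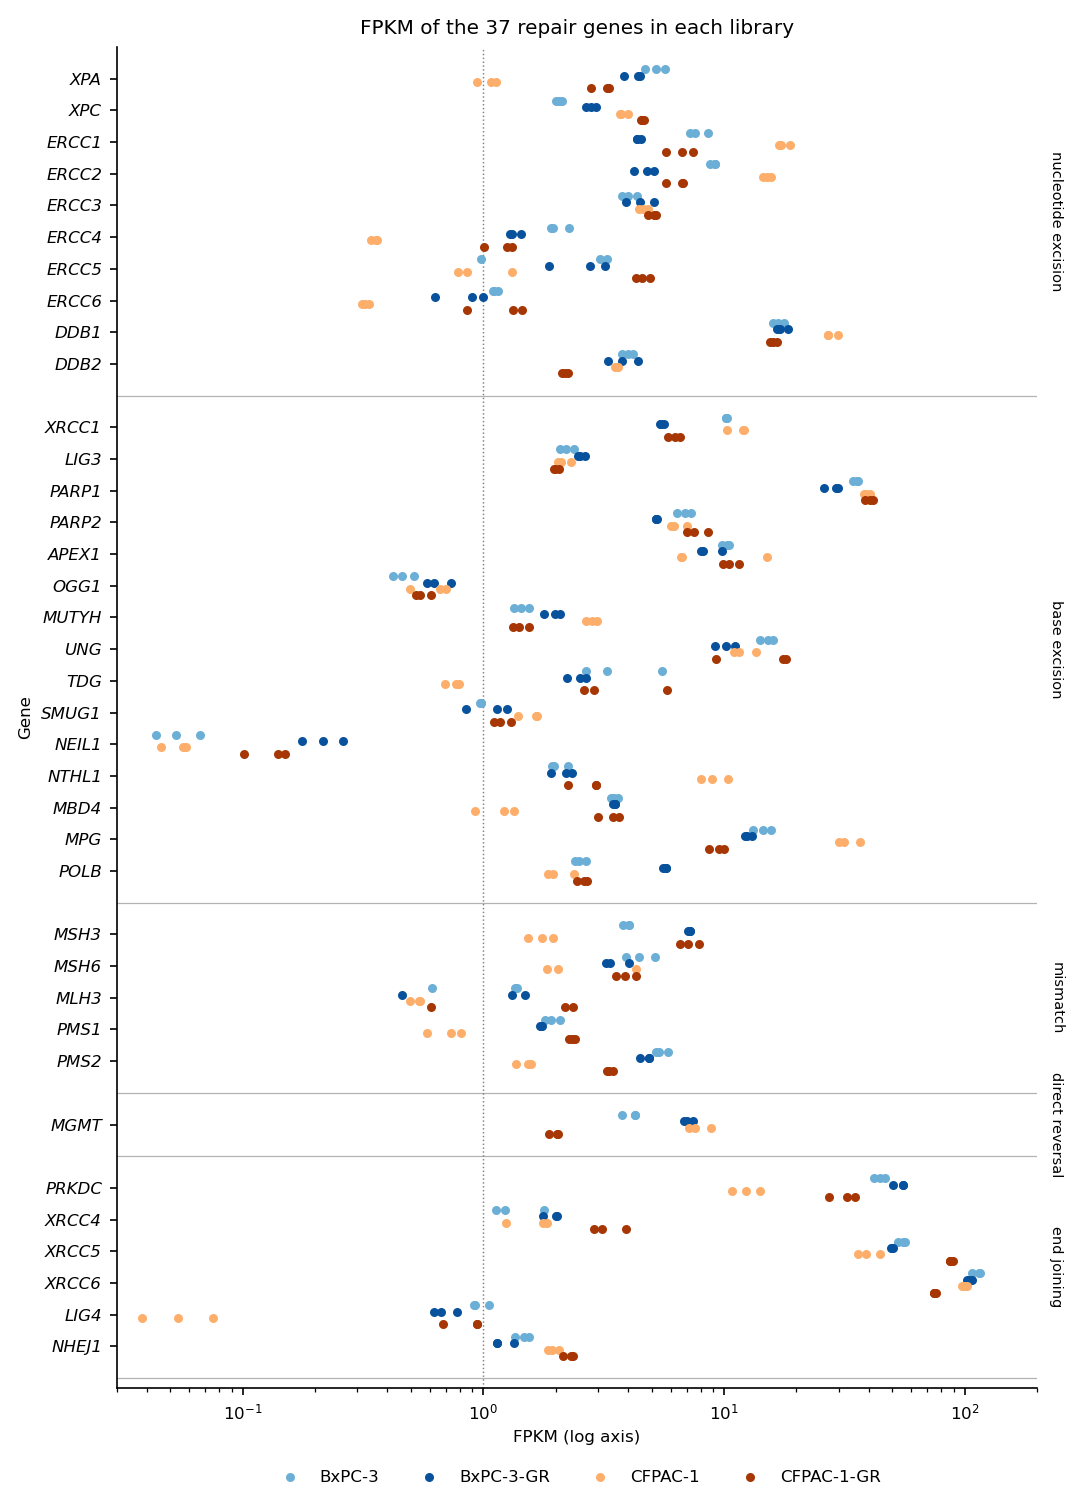
FPKM of each of the 37 repair genes on a log axis, with the genes grouped by pathway, 1 point for each of the 12 libraries and colors for the 4 lines. The dotted line marks 1 FPKM. CFPAC-1 (light orange) lay apart from the other lines for many genes, such as LIG4 at 0.0383 to 0.0754 FPKM and MPG at 30.1 to 36.9 FPKM.

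Promoter sequence of MGMT and MSH3 is printed from RefSeq, which held 33 of the 37 genes. That of the former is shown because MGMT was the member whose change differed most between the lines. It runs over chr10:129466991-129467183 (GRCh38.p14, plus strand), with each GC box (GGGCGG or, on the other strand, CCGCCC) in capitals. None of the marked boxes overlap, and the remainder of the 250 bases before the start is not shown because it lies in an annotated untranslated region.
MGMT: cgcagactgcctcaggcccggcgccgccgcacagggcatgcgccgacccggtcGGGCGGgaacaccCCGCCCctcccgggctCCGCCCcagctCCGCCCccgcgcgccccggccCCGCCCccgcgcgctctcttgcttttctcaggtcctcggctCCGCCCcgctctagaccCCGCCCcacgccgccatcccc
For MSH3, a site in its promoter is shown because MSH3 rose in both lines. It covers 30 bases at chr5:80654536-80654565 (GRCh38.p14, plus strand), begins 116 bases before the RefSeq start, and has the letters of an E2F motif, TTTGGCGC, in capitals.
MSH3: gcggtcaagTTTGGCGCgaaattgtggccg

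The printed MGMT sequence held 7 GC boxes and 28 CpG dinucleotides, and 80.3% of its bases were G or C. Over the 250 bases before the start and on both strands, a GC box was found in 28 of the 33 genes and in 42.6% of 35116 RefSeq promoters. CCAAT was found in 17 of the 33 genes and in 32% of promoters. TTTGGCGC was found in MSH3 alone among the 33 genes and in 0.55% of promoters. DNA methylation and factor binding were not measured.

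In BxPC-3-GR against BxPC-3, the repair genes tested moved in both directions and by less than a log2FC of 1. Genes whose mean reached 1 FPKM over these 6 libraries were tested by limma on log2(FPKM + 1), a scale that understates changes of low genes, and a gene is called changed at a Benjamini-Hochberg adjusted p below 0.05. Of the 33 repair genes that passed the minimum, 6 rose and 8 fell, or 18.2% and 24.2%. Of all 11710 genes tested, 26.2% rose and 31.5% fell. None of the 33 was significantly differentially expressed (SDE), which also requires an absolute log2FC above 1, against 4.14% of all genes upward and 3.62% downward. On this scale none of the 33 had a log2FC above 1 in size at any p, the largest being 0.93 for POLB. NEIL1, under the minimum, rose 4.01-fold without overlap, from means of 0.0544 to 0.218 FPKM. With a pseudocount and minimum of 0.1 FPKM, chosen after seeing the data, the limma log2FC of NEIL1 was 1.04 ± 0.12 (adjusted p = 0.0022). Its BxPC-3 values corresponded to about 5.20 to 8.01 fragments per library. The median log2FC was -0.10 for the repair genes and -0.05 for all genes.

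In CFPAC-1-GR against CFPAC-1, the changes were larger. Of the 32 repair genes that passed the minimum, 13 rose and 11 fell, or 40.6% and 34.4%, while 44.6% of all 12051 genes rose and 34.9% fell. SDE genes numbered 7 upward (XPA, ERCC5, TDG, MBD4, MSH3, PRKDC and XRCC5) and 5 downward (ERCC1, ERCC2, NTHL1, MPG and MGMT). Among all genes, 20.5% were SDE upward and 11.7% downward. Other scalings of the libraries lowered the median log2FC of all genes, by 0.25 with median-of-ratios and by 0.36 with upper-quartile scaling. With these scalings, 10 repair genes rose and 13 or 14 fell, with 3 SDE upward and 7 downward. Among all genes called changed, 56.1% were higher as deposited, 45.0% with median-of-ratios and 40.7% with upper-quartile scaling.

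**Figure D2:**
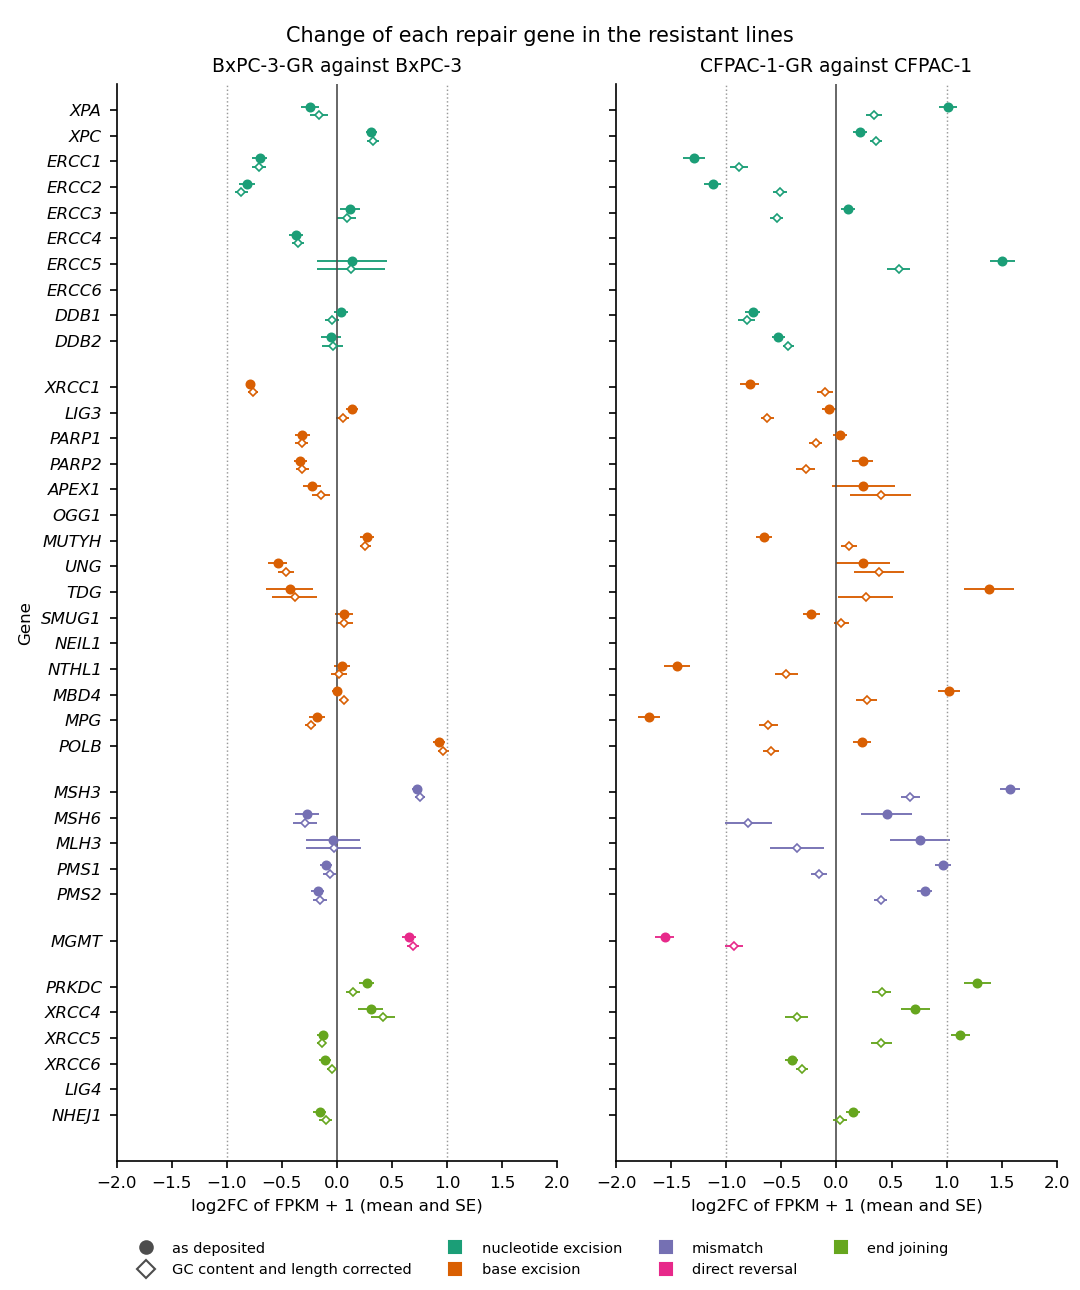
log2FC of FPKM + 1 with its SE for each repair gene, resistant against parental, in the BxPC-3 lines (left) and CFPAC-1 lines (right), as deposited (filled circles) and after correction for GC content and length (open diamonds). Colors mark pathways and dotted lines an absolute log2FC of 1, which 12 genes passed in CFPAC-1-GR as deposited and none after correction.

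The changes in CFPAC-1-GR followed the GC content of the transcripts. The 7 genes SDE upward had a GC content of 39.5% to 45.3% and the 5 genes SDE downward one of 56.1% to 65.6%. Spearman's rho between log2FC and GC content was -0.86 across the 32 repair genes and -0.78 across all genes, which share the same libraries and are not independent replicates. In the BxPC-3 lines it was -0.07 across 33 repair genes and 0.04 across all genes. Between the parental lines (CFPAC-1 minus BxPC-3) it was 0.79 and 0.63, and between the resistant lines (CFPAC-1-GR minus BxPC-3-GR) -0.16 and -0.01. Thus the relation was found in the comparisons that hold the CFPAC-1 libraries and not in the other ones. Among the 3008 genes lowest in GC content, the median log2FC of all genes in CFPAC-1-GR was 1.12 and all 8 repair genes lay above 0, whereas among the 3008 highest the median was -0.80 and all 6 repair genes lay below 0.

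Log values were then corrected in each library by a spline on GC content and on gene length, taken over all merged exons. After this correction no repair gene remained SDE in CFPAC-1-GR, 8 rose and 15 fell. Of the 13 genes that had risen, 8 still rose, 3 were no longer called and 2 fell. Of the 11 genes that had fallen, 8 still fell and 3 were no longer called, and ERCC3, LIG3, PARP1, PARP2 and MSH6 fell after correction only. The 3 CFPAC-1 libraries lay below all 9 other libraries for 6 of the 7 genes SDE upward, ERCC5 being the exception. They lay above all 9 for 4 of the 5 genes SDE downward, MGMT being the exception. These genes were picked by their SDE calls in CFPAC-1-GR, so separation from its 3 libraries was largely given beforehand. The same count was not made over all genes, so it cannot be read as particular to repair genes. What made the CFPAC-1 libraries differ with GC content was not tested. For genes tested there, the corrected log2FC is given below as well.

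**Figure D3:**
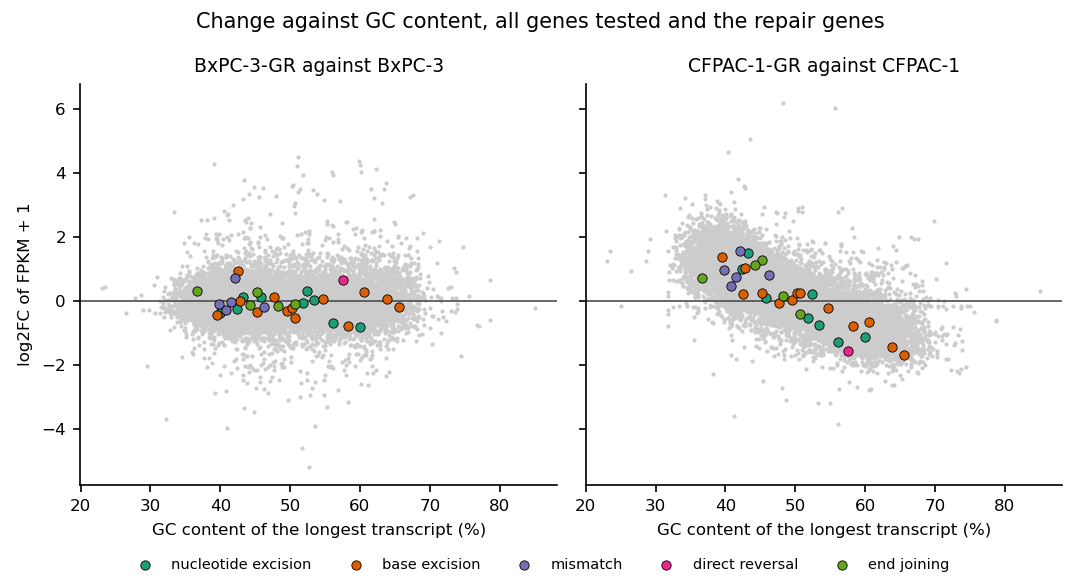
log2FC of FPKM + 1 against the GC content of the longest transcript (%), for all genes tested (gray) and the repair genes by pathway (colors), resistant against parental, in the BxPC-3 lines (left) and CFPAC-1 lines (right). In the BxPC-3 lines the points are level (rho 0.04), and in the CFPAC-1 lines they slope downward (rho -0.78).

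Among the nucleotide excision genes, ERCC1 and ERCC2 fell in both lines. ERCC1, which with ERCC4 forms the nuclease that cuts 5′ of the lesion, had FPKM of 8.54, 7.59 and 7.23 in BxPC-3, 4.53, 4.35 and 4.34 in BxPC-3-GR, with 18.8, 16.9 and 17.3 in CFPAC-1, and 5.77, 7.41 and 6.70 in CFPAC-1-GR. Every resistant library lay below every library of its parental line. ERCC1 fell by 0.70 ± 0.068 on the log2 scale (SE, adjusted p = 0.00031) in BxPC-3-GR and by 1.29 ± 0.097 (adjusted p = 2.3e-05) in CFPAC-1-GR, where the corrected log2FC was -0.89. Exons of ERCC1 overlapped those of CD3EAP on the opposite strand over 28.6% of their length, and CD3EAP also fell, from means of 13.1 to 3.25 FPKM in the BxPC-3 lines and of 5.34 to 3.24 FPKM in the CFPAC-1 lines. Whether counting used the strand is not given in the sources used here, so reads of these genes cannot be told apart.

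ERCC2, which encodes the XPD helicase of TFIIH, had FPKM of 9.20, 9.20 and 8.77 in BxPC-3, 4.81, 5.10 and 4.25 in BxPC-3-GR, with 15.1, 15.7 and 14.6 in CFPAC-1, and 5.76, 6.67 and 6.77 in CFPAC-1-GR. The groups did not overlap in either line. It fell 1.92-fold in BxPC-3-GR (log2FC -0.82 ± 0.069, adjusted p = 0.00018) and 2.36-fold in CFPAC-1-GR (log2FC -1.13 ± 0.079, adjusted p = 1.7e-05), with a corrected log2FC of -0.52. ERCC3, the XPB helicase of the same complex, had means of 4.04 and 4.50 FPKM in the BxPC-3 lines and 4.62 and 5.05 FPKM in the CFPAC-1 lines, parental first. Its groups overlapped in both lines, and neither log2FC, 0.12 and 0.10, passed the test, although the corrected log2FC in the CFPAC-1 lines was -0.54 (adjusted p = 0.00042).

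ERCC4, which encodes the XPF nuclease, had FPKM of 1.94, 1.91 and 2.27 in BxPC-3, 1.43, 1.30 and 1.32 in BxPC-3-GR, with 0.358, 0.341 and 0.362 in CFPAC-1, and 1.25, 1 and 1.31 in CFPAC-1-GR. It was lowest in CFPAC-1, and the groups of neither line overlapped. ERCC4 fell in BxPC-3-GR (log2FC -0.37 ± 0.064, adjusted p = 0.0033), whereas in the CFPAC-1 lines its mean stayed under the minimum for testing. With a pseudocount of 0.1 and a minimum of 0.1 FPKM, chosen after seeing the data, its log2FC there was 1.5 ± 0.12 (adjusted p = 0.0002). ERCC4 has a GC content of 39.9%, and no corrected value was computed at this setting. Its response in the CFPAC-1 lines minus that in the BxPC-3 lines was 1.06 as deposited and -0.16 after correction.

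ERCC5, which encodes the XPG nuclease that cuts 3′ of the lesion, had FPKM of 0.979, 3.07 and 3.27 in BxPC-3, 2.78, 1.88 and 3.20 in BxPC-3-GR, with 0.782, 0.859 and 1.31 in CFPAC-1, and 4.94, 4.32 and 4.57 in CFPAC-1-GR. The BxPC-3 lines overlapped, with BxPC-3 replicate 1 the lowest, and the CFPAC-1 lines did not. The log2FC was 0.14 ± 0.32 (adjusted p = 0.73) in BxPC-3-GR and became -0.22 without BxPC-3 replicate 1. ERCC5 rose 4.68-fold in CFPAC-1-GR (log2FC 1.51 ± 0.11, adjusted p = 2.2e-05, corrected 0.56). The readthrough gene BIVM-ERCC5 shares 63.2% of the ERCC5 exons on the same strand, so the division of reads between them is uncertain, and in the CFPAC-1 lines the means of BIVM-ERCC5 went the other way, from 1.05 to 0.138 FPKM.

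The damage recognition genes moved apart. XPA, which verifies the lesion and holds the incision complex together, had FPKM of 5.22, 4.72 and 5.70 in BxPC-3, 4.39, 3.84 and 4.50 in BxPC-3-GR, with 0.942, 1.12 and 1.08 in CFPAC-1, and 3.27, 3.34 and 2.81 in CFPAC-1-GR. The groups did not overlap in either line, and the resistant line was the lower in the BxPC-3 lines and the higher in the CFPAC-1 lines. XPA fell by 0.25 ± 0.083 in BxPC-3-GR (adjusted p = 0.043), a call that was lost after correction (adjusted p = 0.13), with both other scalings (adjusted p = 0.075 and 0.054), with no minimum FPKM (adjusted p = 0.074) and in 5 of the 6 fits that left out a library, all but that without BxPC-3 replicate 2. It rose 3.00-fold in CFPAC-1-GR (log2FC 1.01 ± 0.079, adjusted p = 2.7e-05, corrected 0.34).

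XPC, which first binds distorted DNA, had FPKM of 2.06, 2.01 and 2.12 in BxPC-3, 2.67, 2.80 and 2.93 in BxPC-3-GR, with 3.98, 3.70 and 3.73 in CFPAC-1, and 4.56, 4.52 and 4.64 in CFPAC-1-GR. Every resistant library was above its parental libraries. XPC rose by 0.31 ± 0.050 (adjusted p = 0.0025) and by 0.22 ± 0.061 (adjusted p = 0.015, corrected 0.36). The CFPAC-1 call was lost without CFPAC-1 replicate 2 or 3 (adjusted p = 0.055 and 0.052), and the direction turned to -0.03 and -0.13 under median-of-ratios and upper-quartile scaling.

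DDB1 and DDB2, which together recognise ultraviolet damage, fell in CFPAC-1-GR, from means of 28 to 16.1 FPKM (log2FC -0.76, corrected -0.82) and of 3.59 to 2.18 FPKM (log2FC -0.53, corrected -0.44). In the BxPC-3 lines their groups overlapped, with log2FC of 0.04 and -0.06. ERCC6, the CSB protein of transcription-coupled repair, had a mean below 1 FPKM over each set of 6 libraries, under the minimum for testing. It stood at 1.12 and 0.843 FPKM in BxPC-3 and BxPC-3-GR and 0.324 and 1.21 FPKM in CFPAC-1 and CFPAC-1-GR. With the pseudocount and minimum of 0.1 FPKM, its log2FC was 1.60 ± 0.20 (adjusted p = 0.00094) in CFPAC-1-GR and -0.39 ± 0.17 (adjusted p = 0.12) in BxPC-3-GR. ERCC6 has a GC content of 38.2%, and no corrected value was computed at this setting.

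Among the base excision genes, the scaffold XRCC1, which holds the ligase and polymerase at a break, was lower in both resistant lines. It had FPKM of 10.3, 10.2 and 10.2 in BxPC-3, 5.43, 5.63 and 5.48 in BxPC-3-GR, with 12, 12.1 and 10.3 in CFPAC-1, and 5.84, 6.26 and 6.57 in CFPAC-1-GR. The libraries of each group lay close together and the groups were apart. XRCC1 fell 1.85-fold in BxPC-3-GR (log2FC -0.79 ± 0.044, adjusted p = 4.1e-05) and 1.85-fold in CFPAC-1-GR (log2FC -0.79 ± 0.085, adjusted p = 0.00012). After correction the value in BxPC-3-GR was -0.76, and that in CFPAC-1-GR was -0.10 and no longer passed (adjusted p = 0.26). LIG3, the ligase that XRCC1 binds, stood at means of 2.22 and 2.54 FPKM in the BxPC-3 lines and 2.15 and 2 FPKM in the CFPAC-1 lines, and neither change passed as deposited. In CFPAC-1-GR, LIG3 fell after correction (-0.63, adjusted p = 0.00024) and with median-of-ratios (-0.27, adjusted p = 0.0066) and upper-quartile scaling (-0.36, adjusted p = 0.0018). In BxPC-3-GR it was called with median-of-ratios scaling (0.17, adjusted p = 0.039).

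POLB, the polymerase that fills the gap, had FPKM of 2.67, 2.41 and 2.5 in BxPC-3, 5.76, 5.76 and 5.60 in BxPC-3-GR, with 1.86, 2.38 and 1.95 in CFPAC-1, and 2.70, 2.62 and 2.46 in CFPAC-1-GR. It was higher in both resistant lines with no overlap, and highest in BxPC-3-GR. POLB rose 2.26-fold in BxPC-3-GR (log2FC 0.93 ± 0.050, adjusted p = 3.6e-05), and with a pseudocount of 0.1 its log2FC was 1.15 and it was SDE. In CFPAC-1-GR the log2FC was 0.23 ± 0.084 (adjusted p = 0.037), a call lost in 5 of the 6 fits that left out a library, all but that without CFPAC-1 replicate 2. The corrected value was -0.59, below 0 (adjusted p = 0.00077), and the call was also lost with median-of-ratios (0.023, adjusted p = 0.81) and upper-quartile scaling (-0.07).

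The glycosylases, which find and remove damaged bases, split in the CFPAC-1 lines. MPG, which removes alkylated purines, had FPKM of 14.5, 15.6 and 13.2 in BxPC-3, 12.2, 13.1 and 12.4 in BxPC-3-GR, with 36.9, 30.1 and 31.4 in CFPAC-1, and 8.63, 9.97 and 9.51 in CFPAC-1-GR. CFPAC-1 stood highest. MPG fell 3.50-fold in CFPAC-1-GR (log2FC -1.70 ± 0.098, adjusted p = 9.1e-06, corrected -0.62), and its log2FC of -0.18 in BxPC-3-GR did not pass as deposited (adjusted p = 0.073). It passed after correction (-0.24, adjusted p = 0.01) and without BxPC-3 replicate 3 (-0.24, adjusted p = 0.025).

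NTHL1, which removes oxidised pyrimidines, had FPKM of 1.92, 2.24 and 1.97 in BxPC-3, 2.20, 2.34 and 1.91 in BxPC-3-GR, with 10.4, 8.04 and 8.95 in CFPAC-1, and 2.25, 2.93 and 2.94 in CFPAC-1-GR. Again CFPAC-1 stood apart, and the BxPC-3 lines overlapped. NTHL1 fell 3.37-fold in CFPAC-1-GR (log2FC -1.45 ± 0.12, adjusted p = 3.3e-05, corrected -0.46). Both genes overlap a neighbour on the opposite strand, MPG with NPRL3 over 27.3% and NTHL1 with TSC2 over 16.5% of their exons, and these neighbours fell in CFPAC-1-GR too, with log2FC of -1.31 and -0.95.

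TDG, which removes thymine and uracil opposite guanine, had FPKM of 3.26, 2.67 and 5.54 in BxPC-3, 2.52, 2.67 and 2.24 in BxPC-3-GR, with 0.693, 0.789 and 0.767 in CFPAC-1, and 2.89, 5.78 and 2.61 in CFPAC-1-GR. BxPC-3 replicate 3 and CFPAC-1-GR replicate 2 stood at about the same high level, apart from their groups. TDG rose in CFPAC-1-GR (log2FC 1.38 ± 0.23, adjusted p = 0.0011), but not after correction (0.26, adjusted p = 0.39). In BxPC-3-GR its log2FC of -0.43 was not called (adjusted p = 0.13), except without BxPC-3 replicate 2 (-0.60, adjusted p = 0.047). TDG has near-identical pseudogene copies, so its reads may be split.

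MBD4, a thymine glycosylase for methylated CpG sites, had FPKM of 3.49, 3.62 and 3.39 in BxPC-3, 3.46, 3.53 and 3.52 in BxPC-3-GR, with 0.925, 1.34 and 1.21 in CFPAC-1, and 3.67, 3.47 and 3.01 in CFPAC-1-GR. The BxPC-3 lines and CFPAC-1-GR were at a like level and CFPAC-1 below them. MBD4 rose 2.92-fold in CFPAC-1-GR (log2FC 1.02 ± 0.10, adjusted p = 7.9e-05, corrected 0.27), and its log2FC in BxPC-3-GR was 0.00 ± 0.046.

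Of the remaining glycosylases, MUTYH, which removes adenine opposite oxidised guanine, rose in BxPC-3-GR (1.44 to 1.96 FPKM, log2FC 0.27, adjusted p = 0.0098) and fell in CFPAC-1-GR (2.83 to 1.43 FPKM, log2FC -0.66, adjusted p = 0.00011), where the corrected value of 0.12 did not pass. UNG, the uracil glycosylase, fell in BxPC-3-GR (15.2 to 10.1 FPKM, log2FC -0.54, adjusted p = 0.002). In CFPAC-1-GR its replicates were uneven at 9.25, 18.1 and 17.6 FPKM against a mean of 12.1 FPKM in CFPAC-1, and it did not pass (adjusted p = 0.39) unless CFPAC-1-GR replicate 1 was left out (log2FC 0.53, adjusted p = 0.0046). The corrected log2FC of UNG was 0.39 (adjusted p = 0.19). SMUG1, another uracil glycosylase, fell in CFPAC-1-GR (1.57 to 1.20 FPKM, log2FC -0.23, adjusted p = 0.028). That call was lost after correction (0.045, adjusted p = 0.61) and without CFPAC-1 replicate 1 or 2 or CFPAC-1-GR replicate 1 or 3. OGG1, the glycosylase for oxidised guanine, had means of 0.467 to 0.646 FPKM in the 4 lines and, like NEIL1, was under the minimum for testing. With the pseudocount and minimum of 0.1 FPKM, OGG1 had a log2FC of 0.40 ± 0.11 (adjusted p = 0.036) in BxPC-3-GR and -0.11 ± 0.14 (adjusted p = 0.52) in CFPAC-1-GR.

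PARP1 and PARP2, which sense strand breaks and mark them with poly(ADP-ribose), fell in BxPC-3-GR, from means of 35.3 to 28.3 FPKM (log2FC -0.31, adjusted p = 0.0071) and of 6.86 to 5.23 FPKM (log2FC -0.33, adjusted p = 0.0037). In CFPAC-1-GR they stood at 40.1 against 39.2 FPKM and 7.73 against 6.40 FPKM. Neither passed as deposited (adjusted p = 0.66 and 0.052), and both log2FC were below 0 after correction (-0.19 and -0.28). PARP2 did pass, at a log2FC of about 0.30, without CFPAC-1 replicate 2 or CFPAC-1-GR replicate 3, and with all 12 libraries in 1 fit (0.24, adjusted p = 0.016). APEX1, the endonuclease that opens the strand at an abasic site, is described for its uneven replicates, seen in its values, as are UNG above and MSH6 below. It had FPKM of 15.2, 6.62 and 6.68 in CFPAC-1 against 10.5, 11.5 and 9.88 in CFPAC-1-GR. CFPAC-1 replicate 1 lay above the resistant libraries and the others below them, and APEX1 passed there without that library (log2FC 0.60, adjusted p = 0.0013) and in no other fit that left out 1 library. Its corrected log2FC was 0.40 (adjusted p = 0.25). In BxPC-3-GR it passed without BxPC-3-GR replicate 1 (log2FC -0.30, adjusted p = 0.01) but not with all libraries (-0.22, adjusted p = 0.057).

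Of the mismatch repair genes, MSH3, the partner in the complex that recognises insertion and deletion loops, was higher in both resistant lines. It had FPKM of 3.81, 4.01 and 4.02 in BxPC-3, 7.23, 7.23 and 7.12 in BxPC-3-GR, with 1.94, 1.53 and 1.76 in CFPAC-1, and 7.90, 7.10 and 6.60 in CFPAC-1-GR. The parental lines differed as deposited (log2FC -0.85 for CFPAC-1 against BxPC-3), but not after correction (-0.014, adjusted p = 0.85). As deposited, the resistant lines reached the same mean of 7.2 FPKM. MSH3 rose 1.82-fold in BxPC-3-GR (log2FC 0.73 ± 0.046, adjusted p = 6.4e-05) and 4.13-fold in CFPAC-1-GR (log2FC 1.58 ± 0.091, adjusted p = 9.2e-06, corrected 0.67, adjusted p = 0.00074).

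PMS1, a MutL subunit, had FPKM of 2.09, 1.81 and 1.91 in BxPC-3, 1.76, 1.73 and 1.73 in BxPC-3-GR, with 0.587, 0.807 and 0.738 in CFPAC-1, and 2.28, 2.34 and 2.42 in CFPAC-1-GR. CFPAC-1 was lowest and CFPAC-1-GR highest. PMS1 rose 3.30-fold in CFPAC-1-GR (log2FC 0.97 ± 0.073, adjusted p = 2.3e-05), but the corrected value was -0.16 (adjusted p = 0.12). PMS2, the MutL endonuclease subunit, rose in CFPAC-1-GR (1.5 to 3.35 FPKM, log2FC 0.80, corrected 0.40), and its log2FC of -0.17 in BxPC-3-GR passed only with all 12 libraries in 1 fit (adjusted p = 0.027). PMS2 has near-identical copies, so its reads may be split.

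MSH6, the partner for base mismatches, had FPKM of 1.84, 4.29 and 2.05 in CFPAC-1 and a mean of 3.91 in CFPAC-1-GR, and did not pass (log2FC 0.46, adjusted p = 0.11) unless CFPAC-1 replicate 2 was left out (log2FC 0.74, adjusted p = 0.00075). After correction it fell (-0.80, adjusted p = 0.018). In BxPC-3-GR the log2FC of -0.27 was not called (adjusted p = 0.074), except without replicate 1 of BxPC-3 or of BxPC-3-GR (-0.35 in both, adjusted p = 0.04 and 0.046). MLH3, another MutL subunit, varied up to 3.9-fold between replicates of 1 line. Its rise in CFPAC-1-GR (log2FC 0.76, adjusted p = 0.037) was lost after correction (-0.36, adjusted p = 0.25), with both other scalings (adjusted p = 0.066 and 0.079), with no minimum FPKM (adjusted p = 0.097) and without any 1 of the CFPAC-1 replicates.

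MGMT moved in opposite directions in the 2 lines. It had FPKM of 4.29, 4.28 and 3.78 in BxPC-3, 7.43, 6.8 and 7 in BxPC-3-GR, with 8.80, 7.58 and 7.13 in CFPAC-1, and 2.04, 2.03 and 1.88 in CFPAC-1-GR. BxPC-3-GR lay above BxPC-3 and CFPAC-1-GR below CFPAC-1, with no overlap in either line. MGMT rose 1.72-fold in BxPC-3-GR (log2FC 0.66 ± 0.064, adjusted p = 0.0003, corrected 0.69) and fell 3.95-fold in CFPAC-1-GR (log2FC -1.56 ± 0.087, adjusted p = 8.5e-06, corrected -0.93, adjusted p = 0.00019).

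The end-joining genes hold the Ku subunits, the DNA-dependent kinase PRKDC that Ku recruits, and the ligation complex of LIG4, XRCC4 and NHEJ1. PRKDC had FPKM of 42.0, 44.3 and 46.4 in BxPC-3, 55.4, 55.4 and 50.1 in BxPC-3-GR, with 10.8, 14.1 and 12.3 in CFPAC-1, and 35.0, 27.2 and 32.6 in CFPAC-1-GR. It was higher in both resistant lines with no overlap. PRKDC rose 1.21-fold in BxPC-3-GR (log2FC 0.27 ± 0.066, adjusted p = 0.013), which did not pass after correction (0.15, adjusted p = 0.085), and 2.55-fold in CFPAC-1-GR (log2FC 1.28 ± 0.13, adjusted p = 7.8e-05, corrected 0.41).

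The Ku subunits moved in opposite directions in CFPAC-1-GR. XRCC5 had FPKM of 52.8, 56.2 and 55.3 in BxPC-3, 50.1, 49.6 and 50.4 in BxPC-3-GR, with 44.4, 38.9 and 36.0 in CFPAC-1, and 86.8, 89.4 and 86.8 in CFPAC-1-GR. It stood highest in CFPAC-1-GR and rose there 2.20-fold (log2FC 1.13 ± 0.089, adjusted p = 2.8e-05, corrected 0.41), while its log2FC of -0.13 in BxPC-3-GR did not pass as deposited (adjusted p = 0.061). XRCC5 was called there after correction (-0.14, adjusted p = 0.031) and with no minimum FPKM (adjusted p = 0.032). XRCC6, described after its values were seen, had FPKM of 114, 116 and 108 in BxPC-3, 107, 104 and 103 in BxPC-3-GR, with 100.1, 97.3 and 102 in CFPAC-1, and 74.5, 75.7 and 74.7 in CFPAC-1-GR. XRCC6 fell in CFPAC-1-GR (log2FC -0.41 ± 0.060, adjusted p = 0.00059, corrected -0.32). The ratio of XRCC6 to XRCC5 FPKM within a library was 2.06 ± 0.109 in BxPC-3, 2.09 ± 0.049 in BxPC-3-GR, 2.53 ± 0.294 in CFPAC-1 and 0.855 ± 0.00741 in CFPAC-1-GR (SD, n = 3).

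XRCC4, the scaffold of the ligase, had FPKM of 1.80, 1.12 and 1.23 in BxPC-3, 2.02, 1.78 and 2 in BxPC-3-GR, with 1.84, 1.76 and 1.24 in CFPAC-1, and 3.91, 2.88 and 3.11 in CFPAC-1-GR. The BxPC-3 lines overlapped through BxPC-3 replicate 1 and the CFPAC-1 lines did not overlap. The log2FC of 0.31 in BxPC-3-GR was not called as deposited (adjusted p = 0.055). It was called after correction (0.42, adjusted p = 0.019), with median-of-ratios scaling (0.34, adjusted p = 0.043) and without BxPC-3 replicate 1 (0.43, adjusted p = 0.005). XRCC4 rose in CFPAC-1-GR (log2FC 0.72 ± 0.13, adjusted p = 0.0017), and the corrected value lay below 0 (-0.36, adjusted p = 0.022).

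LIG4, the ligase itself, was chosen for description after its values were seen. It had FPKM of 1.06, 0.924 and 0.915 in BxPC-3, 0.777, 0.626 and 0.665 in BxPC-3-GR, with 0.0539, 0.0383 and 0.0754 in CFPAC-1, and 0.938, 0.677 and 0.943 in CFPAC-1-GR. The CFPAC-1 values corresponded to about 2.12 to 4.59 fragments per library at the implied depth, against 50.8 to 89.7 in CFPAC-1-GR. LIG4 was under the minimum for testing. With the pseudocount and minimum of 0.1, its log2FC was 2.61 ± 0.16 (adjusted p = 0.00011) in CFPAC-1-GR and -0.44 ± 0.11 (adjusted p = 0.024) in BxPC-3-GR. LIG4 has a low GC content, 36.2%, and no value corrected for GC content and length was computed at this setting. NHEJ1, which bridges the ends with XRCC4, did not pass as deposited in either line, with log2FC of -0.16 in the BxPC-3 lines and 0.15 (corrected 0.030) in those of CFPAC-1. NHEJ1 was called in both when all 12 libraries were fitted together (adjusted p = 0.043 and 0.037). It was also called in BxPC-3-GR without its replicate 1 (-0.20, adjusted p = 0.048) and in CFPAC-1-GR with no minimum FPKM (adjusted p = 0.042).

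Of 32 repair genes tested in both lines, 4 rose in both (XPC, POLB, MSH3 and PRKDC) and 3 fell in both (ERCC1, ERCC2 and XRCC1). MGMT and MUTYH rose in the BxPC-3 lines but fell in those of CFPAC-1, XPA did the reverse, and 5 changed in neither line. The remaining genes changed in 1 line only, 14 of them in CFPAC-1-GR and 3 in BxPC-3-GR. Of all 10393 genes tested in both lines, 11.9% rose in both and 11.3% fell in both, 9.92% rose in the BxPC-3 lines but fell in those of CFPAC-1, and 15.5% did the reverse. A further 9.15% changed in neither line, 32.5% in CFPAC-1-GR only and 9.78% in BxPC-3-GR only. After correction, XPC and MSH3 still rose in both lines and ERCC1 and ERCC2 still fell in both. PARP1, PARP2 and MPG fell in both lines after correction only. The PARP1 call in CFPAC-1-GR (adjusted p = 0.035) was lost when the replicate block was added (adjusted p = 0.09). The shares of all genes changed in both lines were not counted after correction.

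The difference of response, that in the CFPAC-1 lines minus that in the BxPC-3 lines, was tested over all 12 libraries on 12210 genes, 33 of them repair genes. It was SDE and above 0 for 8 repair genes and below 0 for 3, against 23.6% and 14.4% of all genes. The 8 were TDG (1.81), ERCC5 (1.37), XPA (1.26), XRCC5 (1.25), PMS1 (1.07), ERCC4 (1.06), MBD4 (1.02) and PRKDC (1.01), with adjusted p between 6.1e-07 and 0.0053. The 3 were MGMT (-2.22 ± 0.11, adjusted p = 2e-08), MPG (-1.52) and NTHL1 (-1.50). After correction, MGMT (-1.60 ± 0.098, adjusted p = 2.8e-07) and POLB (-1.53 ± 0.089, adjusted p = 2e-07) were SDE, both below 0, and no repair gene was SDE above 0. For XRCC1 the difference was 0.00 ± 0.091 as deposited and 0.68 ± 0.082 (adjusted p = 3.7e-05) after correction.

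The parental lines differed before any exposure to GEM. CFPAC-1 was above BxPC-3 with SDE calls for 3 repair genes, NTHL1 (log2FC 1.73), MPG (1.13) and ERCC1 (1.09), against 18.9% of all genes. It was below for 6, PRKDC (-1.76), XPA (-1.60), TDG (-1.42), PMS2 (-1.37), ERCC4 (-1.17) and MBD4 (-1.06), against 24.4% of all genes. This comparison shares the parental libraries with the responses above. After correction, PMS2 (-1.10), XPA (-1.03) and PRKDC (-1.02) were SDE below and XRCC4 (1.11) above.

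The genes that fell most in BxPC-3-GR lie near each other on chromosome 19. ERCC1, ERCC2 and XRCC1 stand between 28 and 50 Mb, limits set after the values were seen. Of 238 genes tested in this stretch, 88.7% had a log2FC below 0 in BxPC-3-GR and 74.4% fell, with a median of -0.59. The median was 0.10 for 345 genes before 26 Mb and -0.05 for 119 genes after 50 Mb. Within 1 Mb of ERCC1, 29 of 36 other genes lay below 0 (median -0.48), and within 1 Mb of XRCC1, 18 of 20 did (median -0.40). LIG1, the replicative ligase that also seals excision gaps, lies in the same stretch and was the one other gene of these pathways SDE in BxPC-3-GR (9.67 to 4.09 FPKM, log2FC -1.07, adjusted p = 9.6e-05). In CFPAC-1-GR the stretch had a corrected median of -0.18 and the part before 26 Mb one of -0.17.

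**Figure D4:**
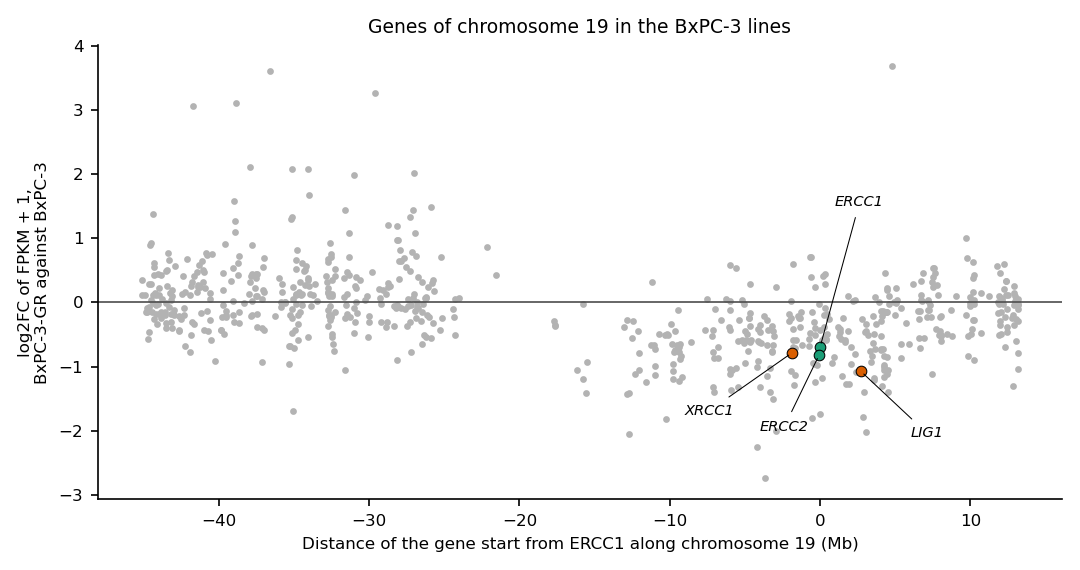
log2FC of FPKM + 1 in BxPC-3-GR against BxPC-3 for the genes of chromosome 19, by the distance of each gene's start from that of ERCC1 in Mb, with ERCC1 and ERCC2 (green) and XRCC1 and LIG1 (orange) named. The genes around these 4 lay mostly below 0, with a median of -0.59 over 238 genes.

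For 3 of the 6 members that rose in BxPC-3-GR, neighbours had medians of 0.42 to 0.56. Within 1 Mb of POLB, 15 of 18 other genes lay above 0 (median 0.42), within 1 Mb of MSH3, 7 of 8 (median 0.56), and within 1 Mb of PRKDC, 3 of 5 (median 0.56). For MUTYH, 17 of 29 neighbours lay above 0 (median 0.07), for XPC, 7 of 11 lay below 0 (median -0.09), and MGMT had 1 tested neighbour, at -0.30. NTHL1, with a log2FC of 0.05 of its own, had 47 of 58 neighbours below 0 (median -0.53). DNA copy number was not measured, and its part in these values was not tested.

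The other genes of the same pathways were read from a list of 53. In BxPC-3-GR, 4 of the 47 tested rose and 23 fell, with a median log2FC of -0.19, beside the 26.2% and 31.5% of all genes given above. In CFPAC-1-GR, 24 of 46 rose and 13 fell, beside 44.6% and 34.9%, and after correction 13 rose and 19 fell. In nucleotide excision, CUL4B, a scaffold of the ubiquitin ligase that carries DDB1, rose from 3.27 to 19.2 FPKM in CFPAC-1-GR (log2FC 2.24, corrected 0.94) and GTF2H1, a TFIIH subunit, from 0.670 to 4.27 FPKM (1.66, corrected 0.44). XAB2, which binds XPA, fell there (log2FC -1.61, corrected -0.85). In base excision, the glycosylase NEIL3 and PARG, which removes poly(ADP-ribose), both rose (log2FC 1.22 and 1.20, corrected 0.36 for both).

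In mismatch repair, RFC1 and RFC3 of the clamp loader rose in CFPAC-1-GR (log2FC 1.64 and 1.42, corrected 0.60 and 0.41) and the polymerase delta subunits POLD1 and POLD2 fell (-1.56 and -1.29, corrected -0.72 and -0.57). In BxPC-3-GR, RFC3 fell (log2FC -0.92, adjusted p = 6e-05) and, of the 11 listed mismatch genes tested, none rose and 6 fell. In end joining, POLQ, the polymerase of the alternative pathway, rose from 0.354 to 3.68 FPKM in CFPAC-1-GR (log2FC 1.78, corrected 0.59). TDP2 also rose (1.13, corrected 0.17, adjusted p = 0.33), and PAXX, a Ku partner, fell (-1.37, corrected -0.27).

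Many repair genes follow the cell cycle, so 15 cycle genes were read beside them. In BxPC-3-GR, 12 of the 15 fell and none rose, beside 31.5% and 26.2% of all genes, with a median log2FC of -0.32 against -0.10 for the repair genes. In CFPAC-1-GR, 5 rose and 6 fell, beside 44.6% and 34.9% of all genes, and as many did after correction. The part of the cell cycle in the repair gene values was not tested.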

How the data were processed

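RNA-seq levels of 37 repair genes were analysed in 12 libraries, 3 of each of 4 cell lines, grouped by the sample labels. The authors deposited FPKM for 58302 genes. Their methods give GRCh38 with Ensembl release 91 and DESeq2 for their own comparisons, and the submitters' processing notes name FastQC 0.10.1, Trimmomatic 0.27 and TopHat2 2.0.8, together with both the hg19 and GRCh38 builds. The strand setting of the counting is not given in the sources used here. FPKM are not counts, so no count test was run, and the depth stated is only that implied by the steps between low values.

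Resistant and parental libraries were compared with limma 3.58.1 (R 4.3.3) on log2(FPKM + 1), for genes with a mean of 1 FPKM or more over the libraries of the comparison, and p values were adjusted by Benjamini-Hochberg over all genes tested. The difference of response and the parental comparison used 1 fit over the 12 libraries. A gene was SDE where the adjusted p was under 0.05 and the log2FC exceeded 1 in size. With 3 against 3 libraries, an exact permutation test cannot give a p below 0.10, so none is given. The steps were run on simulated data, where recovery of known changes was required only without a trend in GC content. That run therefore does not show how well the correction works on these data. The GC content of the longest transcript and the length of all merged exons of a gene came from GENCODE 29, which held 58039 of the genes. Each entered a spline of 5 degrees of freedom. Promoters and their motifs came from RefSeq (GRCh38.p14). Scripts used Python 3.11.15 with pandas 2.3.3, numpy 2.4.6, scipy 1.17.1 and matplotlib 3.10.9.

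The members and gene lists were chosen with earlier results of these data known. Values in every library were given for genes SDE in a line or in the difference of response, genes changed in the same direction in both lines, and the gene with the largest absolute log2FC of each pathway in each line. Of the other pathway genes, at most the 4 largest SDE changes per pathway without overlap were named. Alternatives were a pseudocount of 0.1, no minimum, other scalings, the correction for GC content and length, the replicate number as a block, all 12 libraries in 1 fit and each library left out in turn. A pseudocount and minimum of 0.1 FPKM together were added after seeing the data. Other repair genes are not reported here.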

Additional observations from a re-analysis of the deposited data

Results flagged for a closer look

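The response to GEM selection differed between the lines for 11 repair genes, by the limma test of the difference itself (CFPAC-1 lines minus BxPC-3 lines, log2 scale, adjusted p below 0.05 and size above 1). It was above 0 for 8 and below 0 for 3 of 33 tested, against 23.6% and 14.4% of all genes. In nucleotide excision repair, the difference was 1.26 for XPA, 1.37 for ERCC5 and 1.06 for ERCC4. Among the glycosylases it was 1.81 for TDG and 1.02 for MBD4, against -1.52 for MPG and -1.50 for NTHL1. PMS1 had a difference of 1.07, PRKDC one of 1.01 and XRCC5 one of 1.25, and MGMT had the largest, -2.22. After correction for GC content and length, MGMT stayed past both thresholds at -1.60, and the others did not, with values between -0.45 for NTHL1 and 0.69 for TDG. No outlier test was run within the groups of 3 libraries, although uneven replicates were described and each library was left out in turn.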

How the results depend on the processing

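Of the alternatives, the correction for GC content and length moved the counts most. In the CFPAC-1 lines it left 8 repair genes changed upward (7 with the replicate block as well) and 0 SDE upward and 0 downward, with or without the block. In the difference of response it left 0 SDE above 0, and between the parental lines 1 above and 3 below. Median-of-ratios scaling gave 3 SDE upward in the CFPAC-1 lines, and 3 above and 5 below 0 in the difference of response. Upper-quartile scaling gave 3, 2 and 7, and 5 SDE above between the parental lines. A pseudocount of 0.1 gave 1 SDE upward in the BxPC-3 lines (POLB), and together with a minimum of 0.1 FPKM, added after seeing the data, 2 there (POLB and NEIL1) and 12 in the CFPAC-1 lines.

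Directions turned for 20 of the 37 members in at least 1 comparison, 14 of them in the CFPAC-1 lines. With the correction, with or without the block, log2FC became -0.043 for DDB1 in the BxPC-3 lines. In the CFPAC-1 lines it became -0.54 for ERCC3, -0.19 for PARP1, -0.28 for PARP2, 0.12 for MUTYH, 0.045 for SMUG1, -0.59 for POLB, -0.80 for MSH6, -0.36 for MLH3, -0.16 for PMS1 and -0.36 for XRCC4. The difference of response became -0.16 for ERCC4 and -0.055 for PMS1, and the parental difference 0.052 for ERCC4 and -0.10 for MPG. In the CFPAC-1 lines, median-of-ratios scaling gave -0.030 for XPC, -0.15 for ERCC3, -0.26 for PARP1, -0.028 for PARP2, -0.032 for APEX1, -0.042 for UNG and -0.058 for NHEJ1. Upper-quartile scaling gave -0.13 for XPC, -0.25 for ERCC3, -0.39 for PARP1, -0.14 for PARP2, -0.15 for APEX1, -0.16 for UNG, -0.068 for POLB and -0.15 for NHEJ1. The cause was not tested.

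Leaving out each library in turn gave 6 to 7 changed upward and 7 to 10 downward in the BxPC-3 lines, with 0 to 0 SDE either way, and 10 to 13 and 10 to 11 changed in the CFPAC-1 lines, with 5 to 8 and 5 to 5 SDE. It gave 6 to 9 SDE above and 3 to 3 below 0 in the difference of response, and 3 to 3 and 5 to 7 between the parental lines. In the BxPC-3 lines, log2FC then ranged from -0.22 to 0.33 for ERCC5, -0.0038 to 0.075 for DDB1, -0.14 to 0.025 for DDB2, -0.017 to 0.020 for MBD4 and -0.22 to 0.21 for MLH3. Deviations of libraries of the same number correlated at -0.0521 to 0.0959 in the BxPC-3 lines and at -0.143 to 0.000145 in the CFPAC-1 lines. Such deviations may be mostly noise of single genes, so whether the replicate numbers pair the libraries was not settled. With the replicate block, 7 repair genes rose and 8 fell in the BxPC-3 lines and 13 rose and 11 fell in the CFPAC-1 lines, and no count moved by over 1.5 times. Of single-gene values, 1197 kept their direction and side of the threshold, 43 lost the call, 32 gained it and 51 turned. The depth is only implied, 3 libraries a group limit the precision, and genes under 1 FPKM such as LIG4 rest on few fragments.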
